A study of Mus musculus with 17 samples.

Results

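The Notch genes followed here were 3 receptors (Notch1, Notch2 and Notch3), 3 ligands (Jag1, Jag2 and Dll1) and 4 transcripts known as targets of the pathway (Hes1, Hey1, Heyl and Nrarp). They were taken by gene symbol from RNA-seq counts of the lacrimal gland of the mouse, the source of the watery tear layer, and of organoids grown from it. All 10 have a row among the 38293 gene IDs of a table of gland and uncloned organoids and among the 55487 gene IDs of a table of clonal organoids. In each of these tables, 9 of the 10 passed a filter on low counts, among 13713 and 14282 genes tested, and Heyl did not.

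The 17 libraries of polyadenylated RNA fall into 7 groups. Uncloned wild-type organoid lines 6, 7 and 8 were sampled in differentiation medium (DM), after 2 days in expansion medium (EM) and 5 days in DM, and in EM, after 7 days in EM. Untreated wild-type gland tissue carries the same numbers 6, 7 and 8. The clonal organoids were 2 clones labelled Pax6-KO (KO), clones 1 and 2, in DM and in EM, and 2 wild-type (WT) clones, also 1 and 2, in DM and in EM. The growth protocol gives the clones the same 2 and 5 days for DM, whereas the series text gives 7 days in each medium, so their time in DM is uncertain. Not given in the sources used here are the composition of both media, the way Pax6 was disrupted, and the strain, sex and age of the mice. Whether either medium holds an agent that acts on Notch is therefore not known from them. Each clone is a single clonal line, so a genotype is represented by 2 lines.

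Uncloned and tissue libraries held 12801473 to 19207469 counts and clonal libraries 18282059 to 22500534. Levels are given as CPM, counts scaled to a common library size. Of the unscaled counts, 65.5% to 67.6% fell on the 10 most abundant genes in gland tissue, and 5.96% to 6.72% in uncloned organoids. Gland tissue carried the markers of a whole gland: 6 acinar genes (Lpo, Car6, Aqp5 and others) summed to 427517 to 466298 CPM there, against 23.1 to 27.1 CPM in uncloned DM and 3.51 to 4.68 CPM in uncloned EM organoids. Organoids carried keratin genes of epithelium in every library. Pax6 transcript gave no check of the KO label: it stood at 135 CPM in KO clone 1 and 309 CPM in KO clone 2 in DM, against 219 and 280 CPM in WT clones. In EM it stood at 172 and 272 CPM in KO clones 1 and 2, against 245 and 276 CPM in WT clones. KO against WT was not called for Pax6 (edgeR adjusted p = 0.831 in DM and 0.744 in EM), so KO below means labelled KO.

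Notch receptors are membrane proteins that are activated by ligands of the Jagged and Delta-like families on neighbouring cells. Ligand binding leads to cleavage of the receptor by ADAM proteases and gamma-secretase, and the freed intracellular domain enters the nucleus, binds the DNA-binding protein RBPJ and switches on target genes such as those of the HES and HEY families of repressors. The pathway is known for setting choices between cell fates, and in glandular epithelia for choices between basal, ductal and secretory cells. A ligand can also hold back receptors in its own cell. Transcript levels report on none of these protein steps directly.

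The bases before the start of a gene are shown for Jag1, whose transcript changed most between media, and for Dll1 and Notch3. Dll1 and Notch3 were called between KO and WT clones, as were Jag2 and Hes1, with Notch3 and Jag2 called in EM only. The bases are from RefSeq on GRCm38.p6, in which 7 of the 10 genes were matched, and all 3 genes shown lie on the minus strand. Capitals mark GGGAA, which is the motif TGGGAA that RBPJ is known to bind, without its first letter.
Jag1, chr2:137116645-137116770: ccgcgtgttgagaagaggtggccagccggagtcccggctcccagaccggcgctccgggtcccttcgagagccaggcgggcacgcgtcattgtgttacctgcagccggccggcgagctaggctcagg
Dll1, chr17:15376933-15377182: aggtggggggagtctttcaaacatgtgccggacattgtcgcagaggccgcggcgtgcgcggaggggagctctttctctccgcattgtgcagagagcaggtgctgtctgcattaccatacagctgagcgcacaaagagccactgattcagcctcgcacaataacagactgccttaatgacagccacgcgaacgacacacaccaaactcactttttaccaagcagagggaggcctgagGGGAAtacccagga
Notch3, chr17:32166891-32167140: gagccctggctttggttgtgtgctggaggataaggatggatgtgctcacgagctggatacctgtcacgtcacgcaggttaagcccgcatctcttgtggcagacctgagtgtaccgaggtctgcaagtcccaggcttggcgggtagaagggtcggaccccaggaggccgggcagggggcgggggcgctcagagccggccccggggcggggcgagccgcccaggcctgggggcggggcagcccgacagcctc

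The motif TGGGAA was searched on both strands in the 250 bases before each annotated start. It was in none of the 8 windows of the 7 genes, Dll1 having 2 starts, while 21.6% of 32851 promoters of the same length held it. Hes1, Hey1 and Heyl were not matched and so not searched, which leaves Nrarp as the only target among the 7. The shorter GGGAA, which every TGGGAA also holds, was searched after the longer form gave no match. It was in the windows of Jag1 (its first letter 68 bases before the start), Notch2 (112 bases before) and the outer start of Dll1 (14 bases before), and in 56.2% of all promoters. The Jag1 match falls outside the printed bases, which stop where the annotated exon of the gene begins, and the Dll1 window overlaps an exon of the antisense gene A930024N18Rik.

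Among the 10 genes, levels per kb of exon (CPM per kb, the scale on which genes can be compared) were highest for Hes1 in 6 of the 7 groups and lowest for Heyl in all 7. Hes1, which encodes a transcriptional repressor of the basic helix-loop-helix class, averaged 26.7 CPM per kb in uncloned DM and 17.8 in uncloned EM organoids, against 4.58 in gland tissue. In KO clones in DM, Jag1 at 56.2 and Hes1 at 52.3 CPM per kb had overlapping ranges. In uncloned DM organoids the ranges of neighbours overlapped all the way from Hes1 down to Jag2, so that order is not resolved. In uncloned EM organoids the order below Hes1 was Jag2, Notch3, Notch1, Hey1, Notch2 and Jag1, and among these 6 each neighbour overlapped the next. In gland tissue Hes1 and Notch2 (4.42 CPM per kb) overlapped, and stood above Jag1 (1.81) and Jag2 (1.31). In WT clones in EM the order from Hes1 (64.5 CPM per kb) through Jag2 (33.3), Notch1 (21.8), Notch3 (16.1) and Jag1 (15) held without overlap. In WT clones in DM Jag1 (49.4 CPM per kb) came next after Hes1 (81.3), again without overlap, and the next 4 genes, Notch3, Jag2, Notch1 and Hey1, lay between 10.2 and 11.4.

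**Figure D1:**
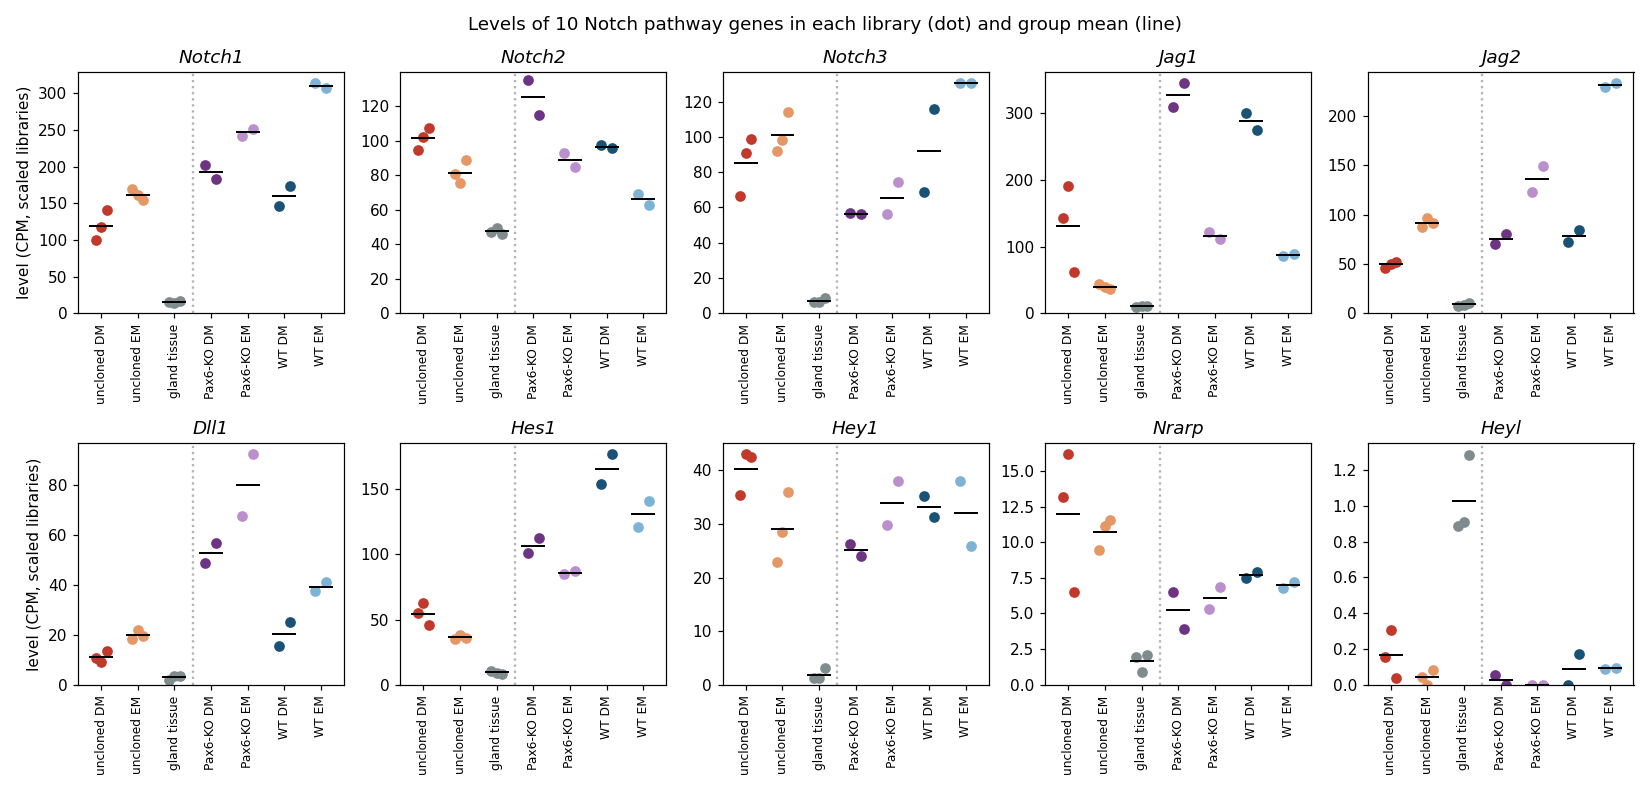
Level in CPM (vertical axis, a separate linear scale for each gene) of the 10 Notch genes in every library (dots) with the group mean (line), for the 3 groups of the uncloned table left of the dotted line and the 4 groups of the clone table right of it. Gland tissue lies lowest of the uncloned groups for every gene but Heyl, and Jag1 stands higher in DM than in EM in all 3 kinds of organoid.

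The first comparison asked how organoids differ from the gland they come from. All 9 tested Notch genes were called higher in organoids than in gland tissue, in EM and in DM. The filter on low counts, which works on unscaled counts, bears on this result. Heyl, lower in organoids, did not pass it. Hey1 and Nrarp, with 38 and 32 counts over the tissue libraries, passed it through the organoid groups. With no filter 9 were called higher and Heyl lower in both media, with medians of 2.825 in EM and 2.794 in DM. Genes called higher, at an edgeR quasi-likelihood adjusted p under 0.05, made up 37.4% of the genes tested in EM organoids and 38.1% in DM organoids, and called genes in either direction 74.8% and 75.5%. The median log2 fold change of the 9 genes was 2.76 for EM over tissue and 2.83 for DM over tissue, beside 0.01 and 0.02 over all genes. With scaling by total counts alone, all genes shifted to medians of 2.06 and 1.99 and the 9 genes to 4.81 and 4.78, and all 9 were again called higher in EM and in DM organoids. TMM scaling, which sets libraries so that most genes balance, gave 5223 higher and 5135 lower in DM and 5130 higher and 5129 lower in EM, whereas total-count scaling gave 11516 and 1270 in DM and 11493 and 1302 in EM.

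Among the receptors, Notch1 (ENSMUSG00000026923, chr2:26457903-26516663, minus strand, GRCm38) stood at 100, 118 and 141 CPM in uncloned DM and 169, 161 and 155 CPM in uncloned EM organoids, against 15.8, 14.6 and 17.4 CPM in gland tissue. Its log2 fold change over tissue was 2.90 ± 0.14 in DM (SE, adjusted p = 5.99e-09) and 3.34 ± 0.14 in EM (adjusted p = 2.32e-09). Notch1 is a receptor of many epithelia, in which it is known to act in cell fate. Notch3 (ENSMUSG00000038146, chr17:32120820-32166852, minus strand), a receptor known best from vascular smooth muscle, stood at 66.7, 90.7 and 99.0 CPM in DM and 92.0, 98.1 and 114 CPM in EM organoids, against 6.57, 6.38 and 8.74 CPM in gland tissue. Over tissue, this was a log2 fold change of 3.54 ± 0.19 in DM (adjusted p = 1.71e-08) and 3.79 ± 0.19 in EM (adjusted p = 1.06e-08). Notch2 (ENSMUSG00000027878, chr3:98013527-98150361, plus strand) differed least of the 3 receptors: it stood at 94.5, 102 and 108 CPM in DM and 80.6, 75.2 and 88.8 CPM in EM organoids, against 47.4, 49.4 and 46.0 CPM in gland tissue. The log2 fold change over tissue was 1.09 ± 0.09 in DM (adjusted p = 6.26e-07) and 0.78 ± 0.09 in EM (adjusted p = 1.08e-05). The receptors therefore made up the pool in unequal parts: Notch2 was 68.7% ± 3.41 of the summed receptor CPM per kb in gland tissue (SD, n = 3), while it was 33.4% ± 2.77 in DM and 24.0% ± 0.971 in EM organoids. A share of this kind does not depend on the scaling of libraries, and it shows unequal change only.

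All 3 ligands were also higher in organoids. Jag2 (ENSMUSG00000002799, chr12:112907819-112929776, minus strand) stood at 46.1, 50.4 and 52.3 CPM in DM and 87.4, 97.0 and 91.4 CPM in EM organoids, against 7.99, 8.93 and 10.4 CPM in gland tissue. Jag1 (ENSMUSG00000027276, chr2:137081456-137116644, minus strand) stood at 142, 190 and 61.3 CPM in DM and 43.8, 39.8 and 36.1 CPM in EM organoids, against 9.06, 11.3 and 11.3 CPM in gland tissue. Line 8 was the low one among the DM libraries, and still above every EM and tissue library. The log2 fold change of Jag1 over tissue was 3.63 ± 0.37 in DM (adjusted p = 3.71e-06) and 1.91 ± 0.37 in EM (adjusted p = 6.02e-04). Dll1 (ENSMUSG00000014773, chr17:15367354-15376872, minus strand), the Delta-like ligand of the set, stood at 10.8, 9.0 and 13.3 CPM in DM and 18.5, 22.0 and 19.4 CPM in EM organoids, against 1.95, 3.28 and 3.47 CPM in gland tissue.

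Of the targets, Hey1 (ENSMUSG00000040289, chr3:8663359-8667256, minus strand), a repressor related to the HES proteins, had the largest rise of the 9 genes in DM. In EM its rise lay within the errors of that of Notch3. It stood at 35.4, 43.0 and 42.5 CPM in DM and 22.9, 28.5 and 36.1 CPM in EM organoids, against 1.24, 1.28 and 3.09 CPM in gland tissue, where it had 7, 7 and 24 counts. That gave a log2 fold change over tissue of 4.34 ± 0.28 in DM (adjusted p = 9.22e-08) and 3.87 ± 0.29 in EM (adjusted p = 2.87e-07). Hes1 (ENSMUSG00000022528, chr16:30064384-30067796, plus strand) stood at 55.0, 62.6 and 45.4 CPM in DM and 35.1, 38.2 and 35.5 CPM in EM organoids, against 10.7, 9.11 and 8.23 CPM in gland tissue. Nrarp (ENSMUSG00000078202, chr2:25180758-25183339, plus strand), whose product is known to dampen Notch signalling, stood at 13.2, 16.2 and 6.54 CPM in DM and 9.47, 11.1 and 11.5 CPM in EM organoids, against 1.95, 0.911 and 2.06 CPM in gland tissue.

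Heyl (ENSMUSG00000032744, chr4:123233556-123249875, plus strand), a relative of Hey1 that is known from vascular smooth muscle, went the other way and was at the limit of detection. It had 3, 8 and 1 counts in DM and 1, 0 and 2 counts in EM organoids, against 5, 5 and 10 counts in gland tissue, whose scaled library sizes are smaller. The ratio of its levels was 0.160 for DM over tissue (95% interval 0.0714 to 0.344, exact, counting error only) and 0.0375 for EM over tissue (0.00713 to 0.126). DESeq2 and edgeR with no filter on low counts each called Heyl lower than in tissue, in EM and in DM organoids. In the clone table no library had more than 3 Heyl counts.

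Gland tissue is a mixture of cell types, and in bulk RNA fewer cells of a type and less RNA per cell cannot be told apart. The 5 basal cell markers (Krt5, Krt14, Trp63, Krt17 and Col17a1) moved with the Notch genes: they summed to 5840 to 7507 CPM in DM and 3626 to 3905 CPM in EM organoids, against 74.2 to 99.2 CPM in gland tissue, and all 5 rose in each comparison. The 6 ductal markers summed to 5497 to 6783 CPM in DM and 4082 to 4517 CPM in EM organoids, against 988 to 1013 CPM in gland tissue. The part of basal and ductal cells in the Notch results was not tested. Endothelial markers (8 genes) summed to 0.513 to 0.692 CPM in DM and 0.877 to 1.62 CPM in EM organoids, against 61.3 to 75.0 CPM in gland tissue, with Kdr, Tie1, Emcn and Cldn5 at 0 in all uncloned organoids. Pericyte and smooth muscle markers (7 genes) summed to 111 to 150 CPM in DM, 33.3 to 35.9 CPM in EM and 103 to 121 CPM in tissue. Leukocyte markers (7 genes) summed to 25.6 to 36.2 CPM in DM and 5.30 to 14.4 CPM in EM, against 314 to 415 CPM in tissue, and fibroblast markers (7 genes) to 18.8 to 24.1 CPM in DM and 0.745 to 1.32 CPM in EM, against 794 to 959 CPM in tissue. The defining pericyte genes Pdgfrb and Kcnj8 were at 0 in uncloned organoids, and Mcam made up most of the sum in DM and in EM.

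The next question was how the Notch genes answer to the change of medium. In uncloned organoids 6 of the 9 tested genes differed between DM and EM, where 30.3% of all genes were called: Jag1, Hes1 and Notch2 rose and Jag2, Dll1 and Notch1 fell. The share of all genes called was 17.2% for rises and 13.2% for falls, 2352 and 1806 genes, and total-count scaling turned these counts to 1952 and 2597. In WT clones 5 of 9 were called (15.7% of all genes, 9.61% higher and 6.13% lower), with rises of Jag1 and Notch2 and falls of Jag2, Notch1 and Dll1. In KO clones 3 of 9 were called (8.35% of all genes, 4.94% higher and 3.41% lower), with rises of Jag1 and Notch2 and a fall of Jag2. The median log2 fold change of the 9 genes was 0.16 in uncloned organoids, 0.06 in WT clones and -0.21 in KO clones, beside medians over all genes of 0.00 in each, so the group moved in no single direction. The uncloned and clonal sets share no libraries.

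Jag1 was the gene with the largest rise. In the clones it stood at 310 and 345 CPM in KO DM, against 121 and 111 CPM in KO EM, and at 301 and 275 CPM in WT DM, against 85.5 and 89.1 CPM in WT EM. The DM and EM libraries did not overlap in any set, and the 4 clones lay close together in DM. The share of all genes without such overlap was not counted. The log2 fold change for DM over EM was 1.72 ± 0.31 in uncloned organoids (adjusted p = 0.00170), 1.49 ± 0.11 in KO clones (adjusted p = 0.00226) and 1.72 ± 0.11 in WT clones (adjusted p = 8.64e-04). Line by line, the uncloned log2 ratios were 1.70, 2.26 and 0.76 for lines 6, 7 and 8. The call held in every alternative run, with each library left out in turn included.

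Jag2 went the opposite way from Jag1 in every line and clone. It stood at 70.5 and 80.1 CPM in KO DM, against 123 and 149 CPM in KO EM, and at 72.8 and 84.3 CPM in WT DM, against 230 and 234 CPM in WT EM. The log2 fold change for DM over EM was -0.89 ± 0.09 in uncloned organoids (adjusted p = 5.45e-05), -0.85 ± 0.13 in KO clones (adjusted p = 0.0154) and -1.56 ± 0.13 in WT clones (adjusted p = 0.00155). The clones of both genotypes thus reached like levels in DM and lay apart in EM. In KO clones the call was lost without DM clone 1 (adjusted p = 0.110), DM clone 2 (0.0622) or EM clone 2 (0.105).

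Dll1 was lower in DM than in EM in all 7 lines and clones. It stood at 48.8 and 56.7 CPM in KO DM, against 67.6 and 92.5 CPM in KO EM, and at 15.7 and 25.2 CPM in WT DM, against 37.6 and 41.1 CPM in WT EM. For Dll1 the log2 fold change was -0.85 ± 0.17 in uncloned organoids (adjusted p = 0.00344), -0.60 ± 0.24 in KO clones (adjusted p = 0.180) and -0.95 ± 0.25 in WT clones (adjusted p = 0.0427). With the clone as a block, the KO value was -0.59 ± 0.15 and was called (adjusted p = 0.0371), as it was with no filter on low counts (0.00372). The WT call was lost without DM clone 1 (adjusted p = 0.122), EM clone 1 (0.120) or EM clone 2 (0.145), and with only the libraries of the 2 groups in the fit (0.101).

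**Figure D2:**
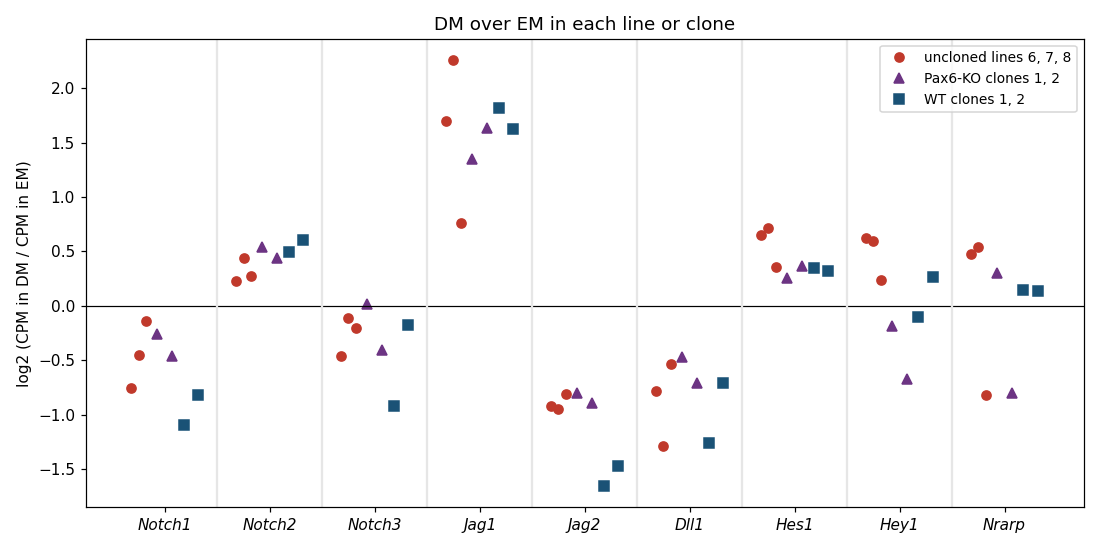
Log2 ratio of the level in DM to that in EM (vertical axis) for the 9 tested Notch genes in each uncloned line (circles), KO clone (triangles) and WT clone (squares). All 7 points lie above 0 for Jag1, Notch2 and Hes1 and below 0 for Jag2, Dll1 and Notch1, while Notch3, Hey1 and Nrarp have points on both sides. The share of all genes with the same sign in all 7 was not counted.

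Among the receptors, Notch1 fell in uncloned organoids and in WT clones. It stood at 202 and 183 CPM in KO DM, against 242 and 251 CPM in KO EM, and at 147 and 174 CPM in WT DM, against 314 and 307 CPM in WT EM. The log2 fold change was -0.44 ± 0.11 in uncloned organoids (adjusted p = 0.0142), -0.36 ± 0.11 in KO clones (adjusted p = 0.107) and -0.96 ± 0.12 in WT clones (adjusted p = 0.00423). The uncloned call was lost without line 6 in DM (adjusted p = 0.0564) or in EM (0.0539), and the WT call held without each library in turn. Notch2 moved the other way by a small amount: it stood at 135 and 115 CPM in KO DM, against 93.1 and 84.8 CPM in KO EM, and at 97.5 and 95.8 CPM in WT DM, against 69.4 and 62.9 CPM in WT EM. For Notch2 the log2 fold change was 0.31 ± 0.08 in uncloned organoids (adjusted p = 0.0165), 0.49 ± 0.11 in KO clones (adjusted p = 0.0447) and 0.55 ± 0.11 in WT clones (adjusted p = 0.0216).

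The Notch2 calls lay close to the threshold. In uncloned organoids the call was lost without EM line 6 (adjusted p = 0.0603) or EM line 7 (0.0852) and with total-count scaling (0.0660). In KO clones it was lost without each of the 4 libraries in turn (adjusted p 0.0764 to 0.238), and likewise in WT clones (0.0505 to 0.114), with the direction the same throughout. Total-count scaling also ended the call in KO (0.0783) and WT clones (0.0512), as did a fit of only the groups compared (0.0538 in KO and 0.0555 in WT). Notch3 was called in none of the 3 sets: it stood at 56.8 and 56.2 CPM in KO DM, against 56.1 and 74.6 CPM in KO EM, and at 68.9 and 116 CPM in WT DM, against 131 and 131 CPM in WT EM. Its log2 fold change was -0.24 ± 0.14 in uncloned organoids (adjusted p = 0.230), -0.21 ± 0.24 in KO clones (adjusted p = 0.662) and -0.50 ± 0.24 in WT clones (adjusted p = 0.206). WT clones 1 and 2 lay far apart in DM, and without WT DM clone 2 the WT value was -0.92 and was called (adjusted p = 0.0230), as it was with no filter on low counts (0.00556).

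The targets did not move as a group. Hes1 stood at 101 and 112 CPM in KO DM, against 84.6 and 87.2 CPM in KO EM, and at 154 and 177 CPM in WT DM, against 121 and 141 CPM in WT EM. Its log2 fold change was 0.58 ± 0.12 in uncloned organoids (adjusted p = 0.00388), where it was called under every alternative run, 0.31 ± 0.12 in KO clones (adjusted p = 0.164) and 0.33 ± 0.12 in WT clones (adjusted p = 0.105). With the clone as a block the WT value of 0.34 ± 0.09 was called (adjusted p = 0.0386). Hey1 stood at 26.2 and 24.0 CPM in KO DM, against 29.8 and 38.1 CPM in KO EM, and at 35.3 and 31.3 CPM in WT DM, against 38.0 and 26.0 CPM in WT EM. For Hey1 the log2 fold change was 0.47 ± 0.18 in uncloned organoids (adjusted p = 0.0784), -0.44 ± 0.21 in KO clones (adjusted p = 0.257) and 0.06 ± 0.21 in WT clones (adjusted p = 0.887). A block on the line gave an uncloned value of 0.49 ± 0.13, which was called (adjusted p = 0.0198), as it also was without EM line 8 (0.65, adjusted p = 0.0395) and with no filter (adjusted p = 0.0460).

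Nrarp stood at 6.52 and 3.93 CPM in KO DM, against 5.30 and 6.83 CPM in KO EM, and at 7.50 and 7.91 CPM in WT DM, against 6.78 and 7.22 CPM in WT EM. It was called in none of the 3 sets, with adjusted p from 0.712 to 0.795, and its uncloned DM libraries ranged from 6.54 to 16.2 CPM, around the 3 EM libraries. Heyl had 12 counts over the 3 uncloned DM libraries, against 3 over the 3 EM libraries, a ratio of levels of 4.27 (95% interval 1.15 to 23.6, counting error only), of which line 7 in DM gave 8 counts. In the clones Heyl had 1 count over KO DM, 0 over KO EM, 3 over WT DM and 4 over WT EM.

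Within every line and clone, whatever the scaling, Jag1 held a larger part of the ligand pool in DM than in EM. Jag1 made up 72.7%, 77.7% and 49.6% of the summed CPM per kb of the 3 ligands in uncloned DM lines 6, 7 and 8, against 30.7%, 26.3% and 25.9% in EM. It made up 71.0% and 70.4% in KO DM, against 38.2% and 30.6% in KO EM, and 78.5% and 72.4% in WT DM, against 25.9% and 26.1% in WT EM. Jag2 averaged 24.1% ± 9.87 in uncloned DM, against 53.3% ± 1.80 in uncloned EM (SD, n = 3 each). In gland tissue the shares were 47.7% ± 1.89 for Jag1, 34.5% ± 2.17 for Jag2 and 17.8% ± 2.74 for Dll1. Of the receptors, Notch2 gained share in DM, at 36.1% in KO DM, against 24.6% in KO EM, and 28.8% in WT DM, against 13.9% in WT EM.

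**Figure D3:**
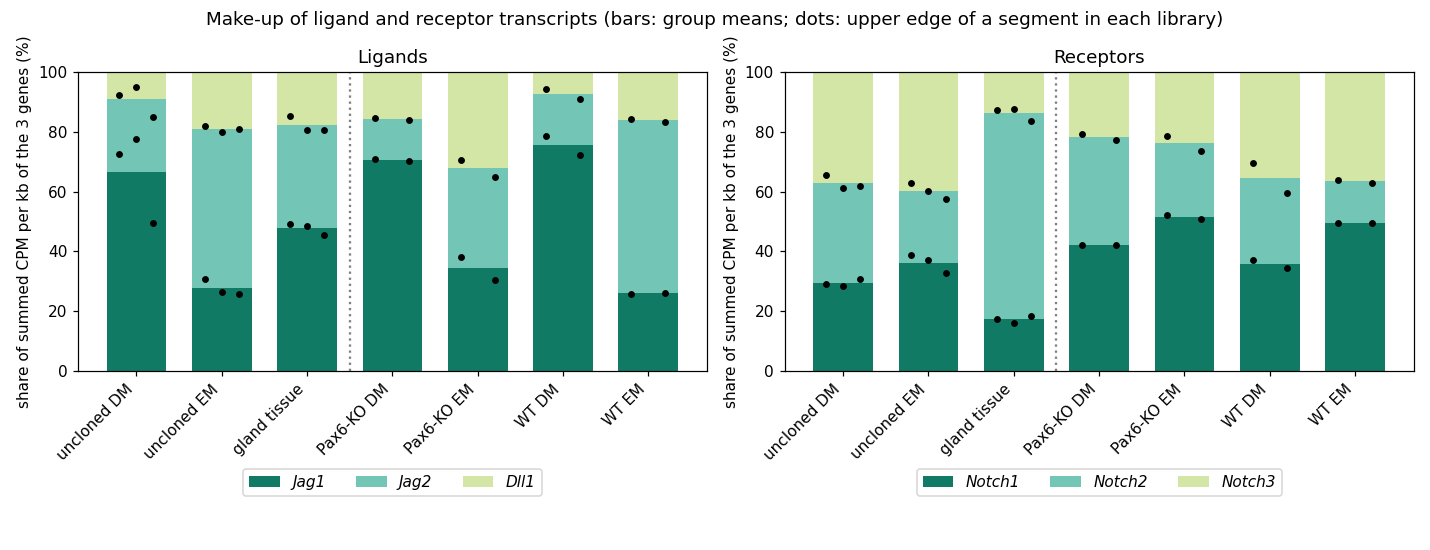
Share of each gene in the summed CPM per kb (vertical axis, percent) of the 3 ligands (left) and the 3 receptors (right) in the 7 groups, with bars at group means and dots at the upper edge of the lower and middle segments in each library. Jag1 is the largest ligand segment in DM of all 3 kinds of organoid, and Notch2 the largest receptor segment in gland tissue.

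Markers of other cell states also differed between media. Myoepithelial markers (6 genes) summed to 137 to 230 CPM in uncloned DM, against 6.00 to 7.18 CPM in uncloned EM, to 32.0 to 36.8 CPM in KO DM, against 0.657 to 1.56 CPM in KO EM, and to 11.6 to 29.1 CPM in WT DM, against 1.34 to 2.67 CPM in WT EM. Basal markers summed to 5840 to 7507 CPM in uncloned DM, against 3626 to 3905 CPM in uncloned EM, to 8363 to 12045 CPM in KO DM, against 7797 to 10636 CPM in KO EM, and to 7795 to 8141 CPM in WT DM, against 6459 to 6911 CPM in WT EM. Acinar markers summed to 2.46 to 5.63 CPM in KO DM, against 2.78 to 7.2 CPM in KO EM, and to 22.0 to 31.6 CPM in WT DM, against 5.06 to 7.18 CPM in WT EM. The acinar genes Scgb2b24 and Obp1a were at 0 in each of these clone groups. Fibroblast markers summed to 18.8 to 24.1 CPM in uncloned DM, against 0.745 to 1.32 CPM in uncloned EM. Of those 7 genes 2 were called higher, Sparc at 22.0 CPM in DM, against 0.909 CPM in EM, and Col1a1 at 0.241 CPM in DM, against 0.0415 CPM in EM, while Col1a2, Col3a1 and Lum were at 0 in both media. In the clones the fibroblast sum was 8.11 to 12.3 CPM in KO DM, against 0.354 to 0.469 CPM in KO EM, and 4.03 to 26.3 CPM in WT DM, against 0.357 to 1.78 CPM in WT EM. Ductal markers summed to 5042 to 5480 CPM in KO DM, against 3917 to 4788 CPM in KO EM, and to 5588 to 7365 CPM in WT DM, against 3739 to 4029 CPM in WT EM. Pericyte and smooth muscle markers summed to 139.6 to 250.4 CPM in KO DM, against 44.0 to 45.6 CPM in KO EM, and to 96.9 to 125 CPM in WT DM, against 40.4 to 58.5 CPM in WT EM. The part of these cell states in the Notch changes was not tested.

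The clones were compared to ask what the Pax6 label changes. Pax6 encodes a transcription factor of eye and lacrimal gland development. In EM 4 of the 9 Notch genes differed between KO and WT clones, with Dll1 higher and Notch3, Jag2 and Hes1 lower in KO, where 9.80% of all genes were called (5.38% higher and 4.41% lower). In DM 2 of 9 differed, with Dll1 higher and Hes1 lower in KO, where 5.47% of all genes were called (2.39% higher and 3.08% lower). The median log2 fold change of the 9 genes was -0.21 in EM and -0.06 in DM, beside 0.01 and -0.01 over all genes.

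Dll1 was the ligand called higher in KO clones in both media. Its KO levels of 67.6 and 92.5 CPM in EM stood against 37.6 and 41.1 CPM in WT, a log2 fold change of 1.02 ± 0.24 (adjusted p = 0.0435). In DM its KO levels of 48.8 and 56.7 CPM stood against 15.7 and 25.2 CPM in WT, a log2 fold change of 1.37 ± 0.25 (adjusted p = 0.0308). All KO libraries lay above all WT libraries of the same medium, and the KO levels in DM were also above the WT levels in EM. Jag2 was lower in KO clones in EM, with 123 and 149 CPM against 230 and 234 CPM in WT, a log2 fold change of -0.77 ± 0.13 (adjusted p = 0.0174). In DM its levels overlapped, and the log2 fold change was -0.06 ± 0.13 (adjusted p = 0.826). Jag1 was not called by edgeR: EM gave 0.41 ± 0.11 (adjusted p = 0.0557) and DM gave 0.18 ± 0.11 (adjusted p = 0.331). In EM it was called by DESeq2 (adjusted p = 0.0238) and by edgeR with no filter (0.0496). Its KO and WT libraries did not overlap in either medium, which held for most of the tested Notch genes. Only Hey1 and Nrarp overlapped in EM and only Jag2 in DM, and the share of all genes without overlap was not counted. Dll1 therefore made up a larger share of the ligand pool in KO clones, 32.3% against 16.2% in WT in EM and 15.7% against 7.39% in WT in DM.

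Hes1 was lower in KO clones in both media. In EM it stood at 84.6 and 87.2 CPM in KO, against 121 and 141 CPM in WT, a log2 fold change of -0.61 ± 0.12 (adjusted p = 0.0259). In DM it stood at 101 and 112 CPM in KO, against 154 and 177 CPM in WT, a log2 fold change of -0.63 ± 0.12 (adjusted p = 0.0345). The KO and WT ranges did not overlap in either medium, as for most of the tested Notch genes. Of the other targets, Hey1 had log2 fold changes of 0.09 ± 0.21 (adjusted p = 0.829) in EM and -0.41 ± 0.21 (adjusted p = 0.281) in DM, and Nrarp of -0.21 ± 0.29 (adjusted p = 0.697) and -0.56 ± 0.29 (adjusted p = 0.289).

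Notch3 was the receptor called in EM, at 56.1 and 74.6 CPM in KO, against 131 and 131 CPM in WT, a log2 fold change of -1.0 ± 0.24 (adjusted p = 0.0470). In DM it stood at 56.8 and 56.2 CPM in KO, against 68.9 and 116 CPM in WT (-0.71 ± 0.24, adjusted p = 0.135). In DM it was called lower by DESeq2 (adjusted p = 0.0480) and by edgeR with no filter (6.35e-05), and the interaction gave no difference between the media that passed the test (adjusted p = 0.918). Notch2 and Notch1 were not called by edgeR. Notch2 had a log2 fold change of 0.43 ± 0.11 (adjusted p = 0.0608) in EM and of 0.37 ± 0.11 (adjusted p = 0.105) in DM. In EM Notch2 was called by DESeq2 (adjusted p = 0.0406) and by edgeR with no filter on low counts (0.0316). Notch1 had -0.33 ± 0.11 (adjusted p = 0.117) in EM and 0.26 ± 0.11 (adjusted p = 0.213) in DM.

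**Figure D4:**
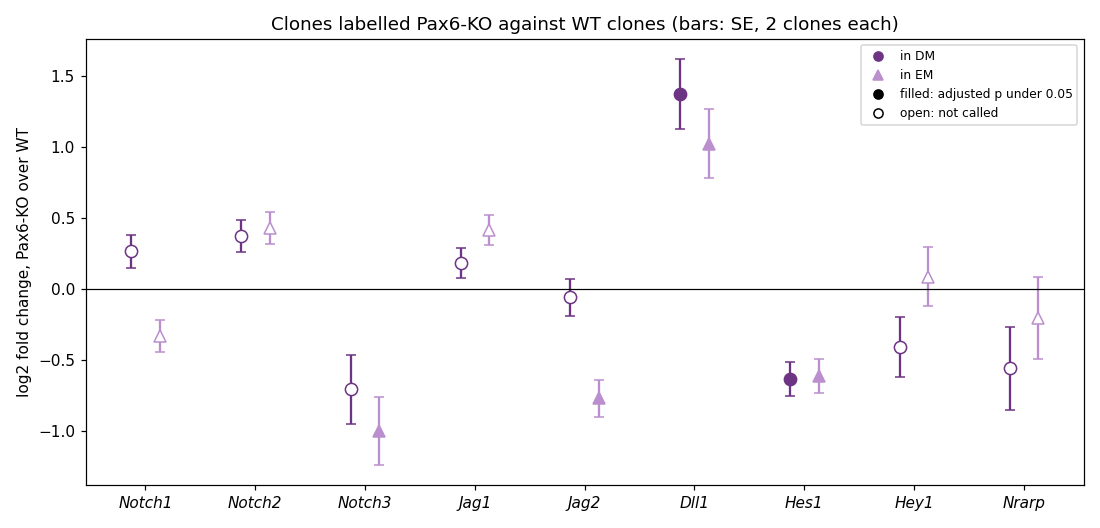
Log2 fold change of KO over WT clones (vertical axis; bars are SE, 2 clones each) for the 9 tested Notch genes in DM (circles) and EM (triangles), filled where the adjusted p is under 0.05. Dll1 lies above 0 and Hes1 below 0 in both media, and Notch3 and Jag2 are filled in EM only.

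These calls rest on 2 clones a side. In EM all 4 were lost when any 1 of the 4 libraries was left out, with the directions the same: adjusted p ranged from 0.0830 to 0.233 for Dll1, 0.121 to 0.215 for Notch3, 0.0611 to 0.101 for Jag2 and 0.0519 to 0.139 for Hes1. In DM the Hes1 call was lost without any 1 library (adjusted p 0.0595 to 0.185), and the Dll1 call without KO clone 1 (0.130), KO clone 2 (0.122) or WT clone 1 (0.0728) but not without WT clone 2. All 5 basal markers had a log2 fold change above 0 for KO over WT in EM (median 0.54) and in DM (median 0.84). Of these Krt14 was called higher in KO clones in EM (log2 fold change 1.25 ± 0.28, edgeR adjusted p = 0.0388) and none was called in DM. Endothelial markers summed to 3.43 to 5.74 CPM in KO EM, against 1.31 to 1.56 CPM in WT EM, and to 2.00 to 4.14 CPM in KO DM, against 1.82 to 1.83 CPM in WT DM. The acinar and ductal sums were lower in KO DM than in WT DM without overlap, as given above. The acinar sums rest on few genes, since 1 of the 6 averaged at least 1 CPM in KO DM and in WT DM. Of the 3 acinar genes tested in DM, 1 was called lower in KO and 1 had a log2 fold change above 0, with a range of -7.07 to 2.60. All 6 ductal markers had a log2 fold change below 0 for KO over WT in DM (median -0.47), and none of them was called. Basal markers summed to 7797 to 10636 CPM in KO EM, against 6459 to 6911 CPM in WT EM. In DM they summed to 8363 to 12045 CPM in KO, against 7795 to 8141 CPM in WT. Their part in the Notch differences was not tested.

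Whether the answer to DM differed between KO and WT clones was tested as an interaction. No Notch gene and no other gene of 14282 was called, while 1126 genes and 2 of the 9 Notch genes had an unadjusted p under 0.05. These 2 were Notch1 and Jag2, whose log2 fold changes for DM over EM lay further below 0 in WT clones: the interaction was 0.60 ± 0.16 for Notch1 (adjusted p = 0.430) and 0.71 ± 0.19 for Jag2 (adjusted p = 0.405). DESeq2 called 178 genes and edgeR with the clone as a block called 70, in neither case a Notch gene. With the block the adjusted p was 0.199 for Notch1 and 0.0870 for Jag2. Jag2 was called with no filter on low counts (adjusted p = 0.0258). For Jag1 the interaction was -0.23 ± 0.15 and for Dll1 0.35 ± 0.34. With the clone as a block the count of all genes called between media was also larger, 2338 against 1193 without it in KO clones and 3650 against 2247 in WT clones.

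A list of 49 other Notch pathway genes was followed beside them, 40 of them tested in the uncloned table and 42 in the clone table. Against gland tissue, 16 rose and 11 fell in DM organoids and 20 rose and 10 fell in EM organoids, with medians of 0.11 and 0.31. These counts of called genes lay near or below the shares over all genes, 75.5% in DM and 74.8% in EM. The 3 with the smallest p in each were Adam17 and Adam10, proteases that cut Notch receptors, and Ncstn, a subunit of gamma-secretase. Adam17 averaged 103 ± 1.85 CPM in DM and 99.7 ± 3.82 CPM in EM organoids, against 18.3 ± 1.3 CPM in gland tissue (SD, n = 3 each). Adam10 averaged 193 ± 7.03 CPM in DM and 130 ± 1.95 CPM in EM organoids, against 39.8 ± 3.47 CPM in gland tissue. Ncstn averaged 159 ± 8.45 CPM in DM and 141 ± 6.21 CPM in EM organoids, against 57.3 ± 4.36 CPM in gland tissue.

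Between DM and EM, 5 genes of the list rose and 7 fell in uncloned organoids, 1 rose and 4 fell in KO clones, and 5 rose and 6 fell in WT clones, with medians of -0.01, 0.04 and 0.05. Over all genes the shares called were 30.3%, 8.35% and 15.7%. Dlk2, which encodes a non-canonical ligand homologue described as an inhibitor of Notch, was called lower in all 3 sets. It averaged 3.18 ± 2.73 CPM in DM, against 23.6 ± 0.166 CPM in EM in uncloned organoids (log2 fold change -2.87 ± 0.41, adjusted p = 4.53e-04). Its log2 fold change was -2.99 ± 0.60 in KO clones (adjusted p = 0.0314) and -3.33 ± 0.59 in WT clones (adjusted p = 0.0130). Neurl1b, a ubiquitin ligase that acts on ligands, fell by 1.78 ± 0.49 in uncloned organoids on the log2 scale (adjusted p = 0.0189), by 2.49 ± 0.35 in KO clones (adjusted p = 0.0115) and by 2.52 ± 0.34 in WT clones (adjusted p = 0.00545). Adam10 rose by 0.57 ± 0.08 in uncloned organoids (adjusted p = 3.42e-04). Numbl, a relative of the Notch inhibitor Numb, rose by 0.80 ± 0.13 in KO clones (adjusted p = 0.0157).

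Dtx4, of the deltex family of ubiquitin ligases named for a regulator of Notch in Drosophila, had the largest KO difference of the list in both media. Of the 42 genes 4 were higher and none lower in KO clones in EM, and again 4 and none in DM, with medians of 0.04 and 0.03. Of all genes 9.80% in EM and 5.47% in DM were called in either direction, and the count of 4 in EM lies near that share. Dtx4 averaged 106 ± 10.1 CPM in KO EM, against 26.9 ± 10.9 CPM in WT EM (log2 fold change 1.98 ± 0.32, adjusted p = 0.0147), and 242 ± 36.4 CPM in KO DM, against 62.7 ± 19.6 CPM in WT DM (1.95 ± 0.31, adjusted p = 0.0257; SD, n = 2 each). Dtx3l, of the same family, averaged 461 ± 23.1 CPM in KO EM, against 157 ± 26.3 CPM in WT EM (1.55 ± 0.15, adjusted p = 0.00467), and 478 ± 24.3 CPM in KO DM, against 276 ± 25.1 CPM in WT DM (0.79 ± 0.14, adjusted p = 0.0312). Maml1, a coactivator of the Notch and RBPJ complex, was higher in KO clones in EM (0.57 ± 0.09, adjusted p = 0.0120), and Numbl in DM (0.84 ± 0.13, adjusted p = 0.0223). Dtx4 was also higher in DM than in EM in uncloned organoids (0.94 ± 0.11, adjusted p = 1.54e-04) and Dtx3l in WT clones (0.81 ± 0.14, adjusted p = 0.0130). The KO calls rest on 2 clones a side. Alternative runs were not made for single genes of this list, so how far their calls depend on 1 library was not tested.

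The remaining receptor and ligand homologues were scarce. Notch4, the receptor known from endothelium, averaged 0.395 ± 0.151 CPM in DM and 0.380 ± 0.238 CPM in EM organoids, against 2.57 ± 0.533 CPM in gland tissue, and fell beside the endothelial markers given above (log2 fold change -2.68 ± 0.48 in DM, adjusted p = 3.41e-04, and -2.76 ± 0.48 in EM, adjusted p = 2.75e-04). Dll4, an endothelial ligand, had 1 to 23 counts in each of the 17 libraries. Hey2 had 0 to 5 counts, and Hes5, a target known from the nervous system, had 0 counts in all 17 libraries, which allows up to 3 counts in each. Lfng, which adds sugars to Notch receptors, averaged 5.77 ± 0.824 CPM in DM and 6.57 ± 0.481 CPM in EM organoids, against 10.5 ± 2.04 CPM in gland tissue, and fell in both (log2 fold change -0.88 ± 0.19, adjusted p = 0.00119, and -0.69 ± 0.18, adjusted p = 0.00550). In WT clones it was lower in DM than in EM (-0.73 ± 0.19, adjusted p = 0.0440).

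For each of the 9 genes, the genes with the most similar levels were taken as those with the highest value of the smaller of 2 Pearson correlations of log2 CPM, one over the 6 uncloned organoid libraries and one over the 8 clone libraries, among 7959 genes of at least 10 CPM. The libraries of a table share their groups, so these values are a description. Jag1 was most like Pdcl3 (0.98) and Epb41l2 (0.98), and Jag2 most like Cenpx (0.98) and Eif4ebp2 (0.98). Dll1 was most like Antxr1 (0.97) and Mrpl49 (0.97), Notch1 like Ptpn14 (0.94) and Hk1 (0.94), and Notch2 like Esyt1 (0.95) and Lox (0.95). Notch3 was most like Lamtor2 (0.92) and Bcam (0.91), and Hes1 like Atg101 (0.97) and Pepd (0.96). The nearest genes were less close for Hey1, with Dsc2 (0.81) and Ndufs6 (0.78), and for Nrarp, with Romo1 (0.86) and Commd7 (0.79). None of these genes is one of the 10 Notch genes. Few of the 7959 genes searched were Notch genes, and Nrarp and Heyl, below 10 CPM on average in the clones, were not searched.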

How the data were processed

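The RNA libraries were stranded and polyA-selected, per the labels' protocols. STAR, featureCounts and the GRCm38 build are named in the submitters' processing notes. The sources used here give no versions, annotation or strand setting. The authors deposited raw counts, whole numbers per gene ID. Each table was fitted alone in R 4.3.3 with edgeR 4.0.16 (filterByExpr with its minimum count of 10, TMM scaling, group means, quasi-likelihood F tests), with Benjamini-Hochberg adjustment over all genes tested in a comparison and calls at an adjusted p under 0.05. Residual degrees of freedom were 6 and 4, and the biological coefficient of variation was 0.138 and 0.234, in the uncloned and the clone table. Dividing a log2 fold change, without its sign, by √F gave its SE. Group values are mean ± SD of CPM. Symbols, exon lengths and coordinates are from GENCODE M21 (GRCm38), which named 36345 of 38293 and 55141 of 55487 IDs; 0.313% and 0.0354% of counts lay on the others.

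The Notch genes and all lists were chosen with earlier results of these data known. Named genes were the 10 Notch genes, the up to 3 of the pathway list with the smallest p in a comparison, Notch4, Dll4, Hes5, Hey2 and Lfng whatever their values, and the 2 most similar genes of each tested Notch gene. All 17 libraries were used and none of the columns of values was left out. No 2 libraries of a group held the same counts or agreed within sampling noise. Nothing says that samples came from separate animals or cultures, so p-values measure only the spread between these samples.

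Alternatives were DESeq2 1.42.0, its size factors, total-count scaling, no filter on low counts, only the groups compared, a block on line or clone, and each library left out. The labels give the same line or clone in both media. Deviations from group means correlated at 0.18, 0.12 and 0.09 between DM and EM of lines 6, 7 and 8, at 0.51 in KO and 0.60 in WT clones, and between -0.07 and 0.08 for organoids with tissue of the same number. The steps were tested on simulated data. Exons of Notch1, Notch3, Dll1 and Nrarp overlap antisense genes, so their reads cannot be told apart if strand was not used: 2051 of the 2582 exon bases of Nrarp overlap Gm38287, whose row in the clone table holds 0 counts. An exon of Notch2 overlaps Gm42820 on the same strand. Levels were not tested across tables.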

Additional observations from a re-analysis of the deposited data

Results flagged for a closer look

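Hey1 had values of opposite sign in uncloned organoids and KO clones, neither of them called (edgeR adjusted p = 0.0784 and 0.257). Its log2 ratio of DM over EM was above 0 in all 3 uncloned lines, with a mean of 0.49, and below 0 in both KO clones, with a mean of -0.43. The uncloned lines and the clones stand in separate tables, and the difference between them was not tested.

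Notch1 had values of opposite sign for KO over WT clones in the 2 media, neither of them called. The clones did not overlap in either medium, and the share of all genes for which this holds was not counted. The log2 fold change of KO over WT was 0.26 in DM and -0.33 in EM. The edgeR adjusted p was 0.213 in DM and 0.117 in EM. The test of the difference itself, the interaction of label and medium, gave 0.60 ± 0.16 (edgeR adjusted p = 0.430). This value is the same interaction that appears for the change of medium.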

How the results depend on the processing

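For the 9 tested Notch genes, 717 of 801 alternative values kept direction and call. In 49 a call was lost, in 16 gained and in 19 the sign turned, never for a gene called with the main settings. Each of the 18 calls against tissue held under every alternative, as did Jag1 between media. The cause of the changes below was not tested.

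With total-count scaling the sign turned for Hey1 in WT clones between media (-0.015) and for Hes1 in the interaction (0.017). Leaving out 1 library gave ranges that span 0 for DM over EM of Nrarp (-0.13 to 0.45) in uncloned organoids, Notch3 (-0.41 to 0.0067) and Nrarp (-0.63 to 0.10) in KO clones and Hey1 (-0.19 to 0.36) in WT clones. The same held for KO over WT of Hey1 in EM (-0.16 to 0.39) and Jag2 in DM (-0.16 to 0.049), and for the interaction of Notch2 (-0.18 to 0.056), Notch3 (-0.038 to 0.71) and Hes1 (-0.14 to 0.081).

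Counts of Notch genes called, over left-out libraries, ran from 1 to 2 (main 3) for KO DM over EM, 3 to 5 (main 5) for WT DM over EM, 0 to 0 (main 4) for KO over WT in EM and 0 to 1 (main 2) in DM. For uncloned DM over EM they ran from 4 to 7 (main 6). With only the groups compared the counts were 3 for WT DM over EM and 0 for KO over WT in DM, and with no filter the interaction had 1.

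Counts of all genes called over left-out libraries ran from 82 to 284 (main 1193) for KO DM over EM and 789 to 1956 (main 2247) for WT DM over EM. They ran from 175 to 494 (main 1399) for KO over WT in EM, 0 to 524 (main 781) in DM, the 0 without KO DM clone 1, and 0 to 14 (main 0) for the interaction. With no filter they were 2572 for KO and 3497 for WT DM over EM, 2947 for KO over WT in EM, 2547 in DM and 657 for the interaction. DESeq2 called 1875 for KO DM over EM, 1572 for KO over WT in DM and 178 for the interaction. With only the groups compared, 924 were called for WT DM over EM and 110 for KO over WT in DM. The replicate block on the clone gave 2338 for KO and 3650 for WT DM over EM and 70 for the interaction. With total-count scaling the calls for uncloned DM over EM were 1952 higher and 2597 lower, against 2352 and 1806. Over left-out libraries the count for uncloned DM over EM ran from 2894 to 5361 (main 4158).

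Beside the blocked values given with the results, the line or clone block changed no other call of a Notch gene. KO and WT clones share only a number, and deviations of same-numbered clones correlated at 0.012 in EM and 0.023 in DM. With that number as a block Notch2 was called in EM (0.43, edgeR adjusted p = 0.0323), and no other Notch call changed. With 1 library left in a group, that library is assumed to vary like the other groups. Heyl is limited by its 0 to 10 counts a library.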
